A study of Schizosaccharomyces pombe with 4 samples.

Results

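The spindle checkpoint and Aurora kinase genes of fission yeast (*Schizosaccharomyces pombe*) were followed in 2 *sim3* mutants. They were chosen as the genes *mad1*, *mad2*, *mad3*, *bub1*, *bub3*, *mph1*, *ark1*, *bir1* and *pic1*, by symbol or systematic identifier. Of these 9 genes, 6 were found under that name among the array's probes. The other 2 that were measured were found under an older name listed in a gene table, *mad3* as SPCC895.02 and *bir1* as *cut17*. No probe matched *ark1* (SPCC320.13c), so the Aurora kinase itself was not analysed here, only its partners. The account therefore covers 8 genes of 4820 tested. Both mutants carry missense alleles of *sim3*, the gene of a histone-binding protein that acts in the assembly of CENP-A chromatin at centromeres. RNA from logarithmically growing *sim3-143* cells and from logarithmically growing *sim3-205* cells was each compared with RNA from wild-type controls, labelled only as wt, on 2 spotted ORF arrays per allele. The growth temperature of these cultures was not given in the sources used here.

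The checkpoint delays anaphase while any kinetochore lacks a proper attachment to spindle microtubules. Mph1 kinase starts the signal at the kinetochore, where Bub1, Bub3 and the Mad1-Mad2 complex gather, and Mad2 with Mad3 then binds the activator Slp1 to hold back the anaphase-promoting complex (APC/C). The Aurora kinase Ark1 acts with Bir1 and Pic1, the fission yeast relatives of survivin and INCENP, in the chromosomal passenger complex, which corrects wrong attachments.

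Mutant and wild-type samples were labelled in different dyes for each hybridization, the mutant in Cy3 on replicate 1 of each allele and in Cy5 on replicate 2. Values are log2 ratios of mutant over wild-type, given per array as the mean of the 2 spots of a probe, so n = 2 counts arrays per allele. It is not stated if a dye swap reused the RNA of its partner array, or if both alleles were set against one wild-type RNA, and the p-values then measure only the spread between these arrays. The arrays came from bulk cultures, in which fewer cells of a type and less RNA per cell cannot be told apart. Over all genes, the SD of the log2 ratios was 0.31 and 0.50 on the 2 arrays of *sim3-143*, and 0.66 and 0.38 on the 2 of *sim3-205*. Across genes, the 2 arrays of an allele had a Pearson correlation of 0.48 in *sim3-143* and of only 0.14 in *sim3-205*. With *sim3-143* replicates 1 and 2, *sim3-205* replicate 1 correlated at -0.059 and -0.074, and *sim3-205* replicate 2 at 0.33 and 0.58. The highest correlation was thus between alleles, on the arrays with the mutant in Cy5. In 3 of the 32 grids of *sim3-205* replicate 1 the dyes were unrelated (Spearman correlations of 0.24, 0.16 and -0.071 over the spots of a grid), and 1 of these grids holds *bir1*. The mutated gene *sim3* (SPBC577.15c) had log2 ratios of 0.25 and -0.039 in *sim3-143* and of 0.000135 and -0.27 in *sim3-205*. Since the alleles are missense, its level does not check the labels.

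None of the 8 genes passed the threshold for a difference from wild-type. In *sim3-143* 4 genes had a mean above wild-type and 4 below, and the counts were the same in *sim3-205*. The median log2 ratio of the 8 genes was 0.052 in *sim3-143*, where the median over all genes was -0.0098, and 0.020 in *sim3-205*, where that median was 0.0073. By limma across all genes, 0 of the 8 had an adjusted p under 0.05 in *sim3-143*, in *sim3-205*, in the mean of both alleles or in the difference between alleles. In each of these comparisons 0% of the 4820 genes tested were called. At an unadjusted p under 0.05, *bir1* alone was past in *sim3-205* and in the mean of both alleles, beside 8.80% and 11.6% of all genes, and its wild-type signal was below background on 1 of the *sim3-205* arrays. No member was past in *sim3-143* (8.69% of all genes) or in the difference between alleles (5.06%).

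The study's own cutoff for a listed gene, at least 3 of its 4 data points past 1.5-fold in one direction, was met by 0 of the 8 genes in either allele. Over all genes measured in *sim3-143* it was met by 2.09% higher and 1.39% lower, and in *sim3-205* by 2.56% higher and 0.599% lower. In genes, this was 101 higher and 67 lower in *sim3-143*, and 124 higher and 29 lower in *sim3-205*. The study lists fewer genes for *sim3-143* than for *sim3-205* by this cutoff, an order that the values normalized here did not reproduce. The 95% confidence interval from limma lay within a 2-fold change for all 8 genes in *sim3-143* (80.0% of all genes) and for 7 of the 8 in *sim3-205* (81.6% of all genes), where *bir1* was the exception. Changes within 1.5-fold were bounded in this way for 3 genes in *sim3-143* and for 4 in *sim3-205*. The share of all genes at this width was not computed, so these counts do not set the members apart.

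**Figure D1:**
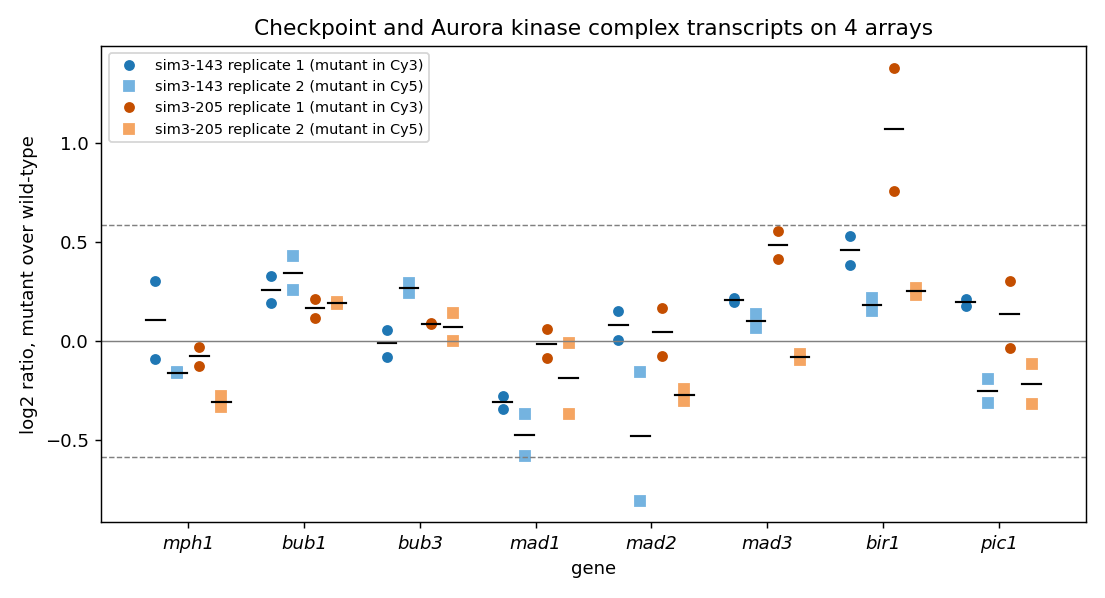
Log2 ratio of mutant over wild-type (vertical axis) of 8 genes (horizontal axis) on each array, with a point for each of the 2 spots, a short black line for their mean and dashed lines at 1.5-fold. *bub1* and *bir1* lie above 0 on every spot, *mad1* lies below 0 on 7 of 8 spots, and the highest points are those of *bir1* on *sim3-205* replicate 1.

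The upstream kinases *bub1* and *mph1* had means on opposite sides of 0. *bub1* (SPCC1322.12c) encodes a kinase that recruits other checkpoint proteins and marks centromeric histone H2A for shugoshin. Its log2 ratios were 0.26 and 0.34 on the *sim3-143* arrays and 0.17 and 0.19 on the *sim3-205* arrays. The values were above 0 in both dye orientations. In *sim3-143* the mean was 0.30 ± 0.059 (SD, n = 2 arrays), or 1.23-fold, with an adjusted p of 0.588 from limma. In *sim3-205* it was 0.18 ± 0.018, with an adjusted p of 0.735. That *sim3-205* mean depended on the processing. It was 0.061 with loess run grid by grid (print-tip loess), -0.043 with the gene names as written for each array, and 0.23 with background subtracted. The difference between alleles, -0.12 with a 95% interval from -0.65 to 0.41, had an adjusted p of 0.883 from limma. Over all 4 arrays the mean was 0.24 (95% interval from -0.023 to 0.50, limma adjusted p = 0.451). *bub1* and *bir1* were the 2 members with all 8 spots above 0, as were 7.11% of all genes with 8 values.

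*mph1* (SPBC106.01) encodes the Mps1-related kinase that starts checkpoint signalling. On the arrays its log2 ratios were 0.11 and -0.16 on the *sim3-143* arrays and -0.075 and -0.30 on the *sim3-205* arrays. The *sim3-143* arrays lay on either side of 0, and the 2 spots of *sim3-143* replicate 1 did too, at -0.088 and 0.30. The *sim3-143* mean was -0.025 ± 0.19 (SD, n = 2 arrays) and the *sim3-205* mean -0.19 ± 0.16, with adjusted p of 0.958 and 0.753 from limma. The protein-coding gene *srx1* overlaps *mph1* in the gene table and was above 0 on every array, with a mean over both alleles of 0.37 (limma adjusted p = 0.397). RNA of overlapping genes cannot be told apart if a probe holds both, which was not tested.

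*bub3* (SPAC23H3.08c) encodes the partner that brings Bub1 to phosphorylated Spc7 at the kinetochore. The log2 ratios of *bub3* were -0.011 and 0.27 in *sim3-143* and 0.088 and 0.071 in *sim3-205*. The *sim3-205* arrays nearly coincided and lay inside the range of the *sim3-143* arrays. The means were 0.13 ± 0.20 (SD, n = 2 arrays) and 0.080 ± 0.013, with adjusted p of 0.754 and 0.915 from limma.

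Of the Mad proteins, *mad1* had the lowest mean of all members in *sim3-143*. *mad1* (SPBC3D6.04c) encodes the scaffold that holds Mad2 at unattached kinetochores. Its log2 ratios were -0.31 and -0.47 on the *sim3-143* arrays and -0.013 and -0.19 on the *sim3-205* arrays. *mad1* was the 1 member below 0 on all 4 arrays, as were 10.5% of all genes. The *sim3-143* mean was -0.39 ± 0.12 (SD, n = 2 arrays), or 0.763-fold, with an adjusted p of 0.576 from limma. In *sim3-205* the mean was -0.099 ± 0.12 with an adjusted p of 0.878. The difference between the alleles, 0.29 with a 95% interval from -0.27 to 0.85, had an adjusted p of 0.752 from limma. With median centring in place of loess, the means of *mad1* were -0.29 in both alleles.

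*mad2* (SPBC20F10.06) encodes the protein that binds the APC/C activator Slp1 when the checkpoint is on. For *mad2* the log2 ratios were 0.081 and -0.48 on the *sim3-143* arrays and 0.047 and -0.27 on the *sim3-205* arrays. In each allele the array with the mutant in Cy3 lay slightly above 0 and the array with the mutant in Cy5 below it. On *sim3-143* replicate 2 its 2 spots stood at -0.80 and -0.16, and the first of them had the lowest signal over background of any member spot outside *bir1*, 2.48 times. The *sim3-143* mean was -0.20 ± 0.40 (SD, n = 2 arrays) and the *sim3-205* mean -0.11 ± 0.22, with adjusted p of 0.705 and 0.904 from limma. For *mad2*, then, the spread between arrays exceeded the mean in both alleles.

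*mad3* (SPCC1795.01c) encodes the relative of BubR1 that joins Mad2 and Slp1 in the inhibitory complex. For *mad3* the log2 ratios were 0.21 and 0.10 on the *sim3-143* arrays and 0.49 and -0.078 on the *sim3-205* arrays. The *sim3-205* arrays enclosed those of *sim3-143*, and both spots of an array stood close together in every case. The means were 0.16 ± 0.076 (SD, n = 2 arrays) and 0.20 ± 0.40, with adjusted p of 0.757 and 0.770 from limma. The protein-coding neighbour *sua5* overlaps *mad3* in the gene table and had a mean over both alleles of -0.17 (limma adjusted p = 0.633).

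In the chromosomal passenger complex, *bir1* lay above 0 on every array, but its highest value came from an array on which the wild-type signal was below background. *bir1* (SPCC962.02c) encodes the survivin relative that brings the Aurora kinase to centromeres. Its log2 ratios were 0.46 and 0.19 on the *sim3-143* arrays and 1.07 and 0.25 on the *sim3-205* arrays. All were above 0, and *sim3-205* replicate 1 stood far above the other 3 arrays, which lay between 0.19 and 0.46. Its *sim3-143* mean was 0.32 ± 0.19 (SD, n = 2 arrays), or 1.25-fold, with an adjusted p of 0.629 from limma. In *sim3-205* it was 0.66 ± 0.58 (95% interval from 0.050 to 1.27), with an adjusted p of 0.545 from limma. The mean over both alleles was 0.49 (95% interval from 0.059 to 0.92) with an adjusted p of 0.409. *bir1* and *bub1* were the 2 members above 0 on all 4 arrays, as were 11.6% of all genes.

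The value of *bir1* on *sim3-205* replicate 1 came from one of the grids with unrelated dyes. There the mutant intensities of the 2 spots were 1776 and 1916 against local backgrounds of 116 and 110.5. The wild-type intensities were 163.5 and 168, below their local backgrounds of 188 and 191. The wild-type channel thus carried no *bir1* signal above background on that array, while on the other 3 arrays the dimmer dye stood between 12.2 and 37.2 times its background. Without that array, the fitted *bir1* value in *sim3-205* was 0.25 (95% interval from -0.34 to 0.84, limma adjusted p = 0.934), with the lone array assumed to vary like those of *sim3-143*. On that remaining array *mph1* at -0.30 and *mad2* at -0.27 were further from 0. With print-tip loess, which normalizes grid by grid, *bir1* was 0.11 in *sim3-205* (limma adjusted p = 0.852) and 0.68 in *sim3-143* (0.341). With the main loess and without *sim3-205* replicate 1, the *bir1* mean of both alleles was 0.29. Without *sim3-205* replicate 2 in its place, the 1 array whose title carries another slide code and whose values were deposited for another array platform, the *sim3-205* value was 1.07 (95% interval from 0.48 to 1.66) and limma called it (adjusted p = 0.0425), as it then called 7.01% of all genes in *sim3-205*. That fit holds the array on which the wild-type signal was below background. The protein-coding gene *tcb1*, which overlaps *bir1* in the gene table, had log2 ratios of 0.14 and -0.33 in *sim3-143* and of 0.020 and -0.034 in *sim3-205*, with no high value on *sim3-205* replicate 1, where its probe lies in another grid.

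**Figure D2:**
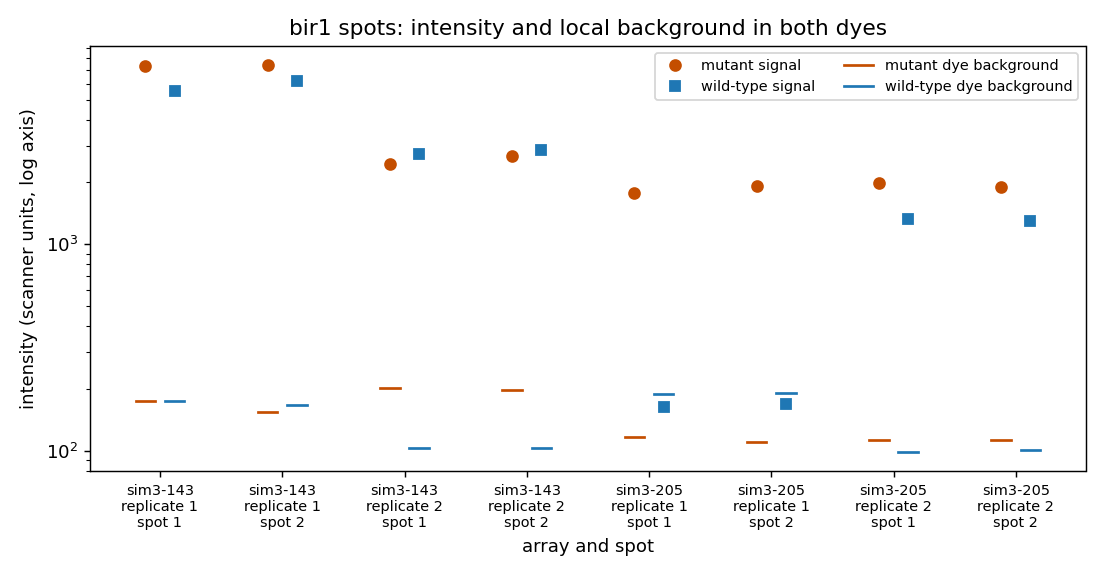
Intensity of each *bir1* spot in the mutant dye (circles) and the wild-type dye (squares), with short lines for the local background of each dye, in scanner units on a log axis, for both spots of each array (horizontal axis). On *sim3-205* replicate 1 the wild-type signals of 163.5 and 168 lie under their background, while on the other 3 arrays both dyes lie far above it.

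*pic1* (SPBC336.15) encodes the INCENP relative that binds and activates the Aurora kinase. *pic1* stood at a log2 ratio of 0.20 and -0.25 on the *sim3-143* arrays and at 0.14 and -0.21 on the *sim3-205* arrays. Each allele had an array above 0 and an array below 0, at nearly the same values in both alleles. The means were -0.027 ± 0.32 (SD, n = 2 arrays) and -0.040 ± 0.25, with adjusted p of 0.959 and 0.977 from limma. The 95% intervals ran from 0.700-fold to 1.38-fold in *sim3-143* and from 0.693-fold to 1.36-fold in *sim3-205*.

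**Figure D3:**
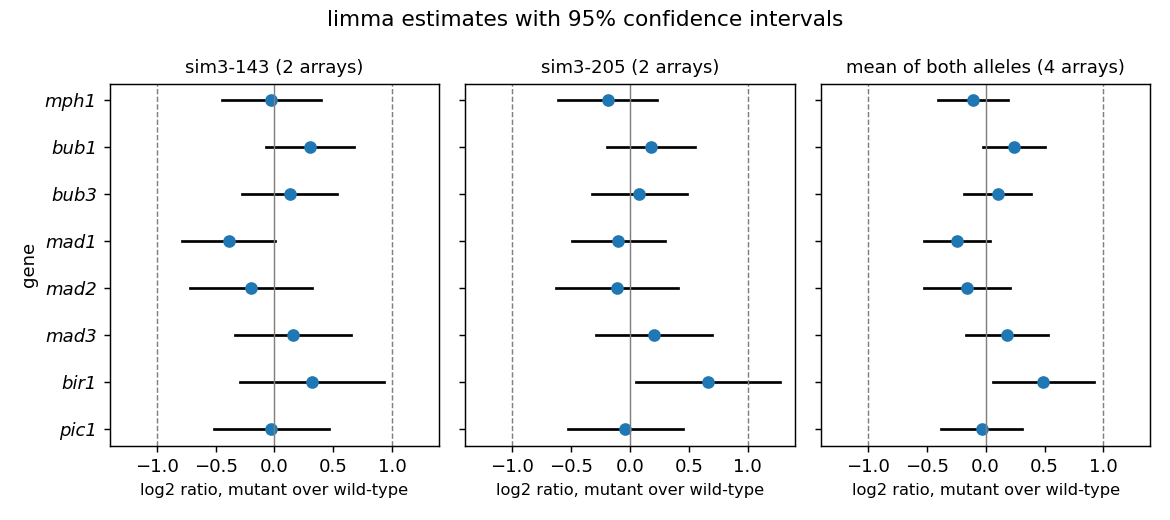
limma estimates (points) and 95% confidence intervals (lines) of log2 ratios, mutant over wild-type (horizontal axis), for 8 genes (vertical axis), in *sim3-143*, in *sim3-205* and in the mean of both alleles, with dashed lines at 2-fold. Every interval includes 0 except that of *bir1* in *sim3-205* and in the mean of both alleles, and that of *bir1* in *sim3-205* is the only one to pass 2-fold.

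The orientation of the dyes went with the values of most members. In both alleles, 6 of the 8 genes (*mad1*, *mad2*, *mad3*, *mph1*, *bir1* and *pic1*) had a higher log2 ratio on the array with the mutant in Cy3 than on the array with the mutant in Cy5, as had 31.0% of all genes. *bub1* had the opposite order in both alleles, and *bub3* had one order in each. The 2 arrays of an allele lay on opposite sides of 0 for 4 genes in *sim3-143* (*mad2*, *bub3*, *mph1* and *pic1*) and for 3 in *sim3-205* (*mad2*, *mad3* and *pic1*). The share of all genes with arrays on opposite sides of 0 was not computed, so these counts do not set the members apart. With a dye coefficient added to the limma fit, the 8 dye coefficients had adjusted p from 0.537 to 0.947, and 0 members were called. Each allele holds both orientations once, so a dye effect that is the same on both arrays cancels in the allele's mean. In *sim3-205*, however, the array with the mutant in Cy5 was also deposited for another array platform, under another slide code. Dye order and platform cannot be told apart in that allele, and a dye effect that differs between platforms would not cancel. The median of the 8 genes was 0.15 and 0.11 on the arrays with the mutant in Cy3 and -0.028 and -0.13 on those with the mutant in Cy5, for *sim3-143* and *sim3-205* respectively.

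**Figure D4:**
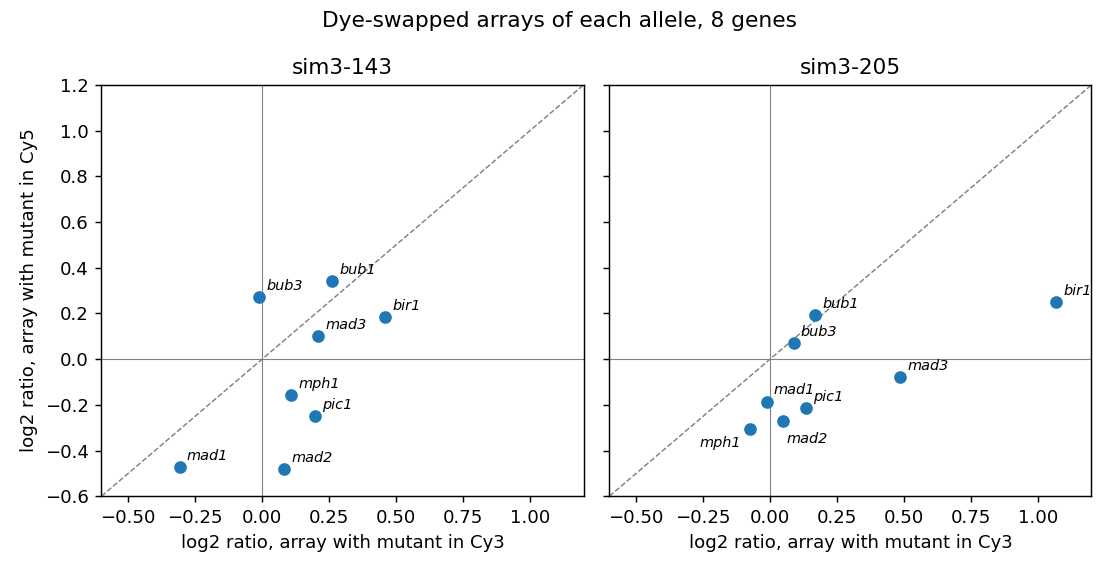
Log2 ratio of mutant over wild-type on the array with the mutant in Cy3 (horizontal axis) against that on the array with the mutant in Cy5 (vertical axis), for 8 genes in *sim3-143* (left) and *sim3-205* (right), with a dashed line of equal values. In each panel most genes lie below the dashed line, and *bub1* lies above it in both.

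Over the 4 arrays, the most alike pair of members was *mph1* and *pic1*, at a Euclidean distance of 0.26 between their log2 ratios, and both probes lie in the same grid. Of the other pairs that share a grid, *mad1* and *bub1* were 1.08 apart and *mad3* and *bub3* 0.51. The least alike pair was *mad1* and *bir1* at 1.54. Over the 3 arrays other than *sim3-205* replicate 1 the same pairs stood first and last, at 0.16 and 1.10. These distances describe 8 genes on shared arrays and carry no test.

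The partners and targets of the checkpoint and of the Aurora kinase were taken from 7 lists. Of 62 such genes, 56 had a probe and 55 were tested, and 0 were called by limma in either allele or in their mean. None of them was past 1.5-fold by 3 of 4 data points, and 6 of the 55 had an unadjusted p under 0.05 in the mean of both alleles, beside 11.6% of all genes. Their median log2 ratio was 0.048 in *sim3-143* and -0.049 in *sim3-205*.

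The APC/C and its activators are what the checkpoint holds back. Of 15 genes, 14 were tested, with a median of -0.036 in *sim3-143* and of -0.26 in *sim3-205*. On single arrays the list's median was 0.012 and -0.056 in *sim3-143* and -0.31 and -0.087 in *sim3-205*, so the lowest value was that of *sim3-205* replicate 1. With the grids of unrelated dyes left out, the *sim3-205* median was -0.24. The subunit gene *apc2* averaged -0.57 ± 0.079 (SD, n = 2 arrays) for *sim3-205* and -0.17 ± 0.045 for *sim3-143*, and over both alleles its limma adjusted p was 0.383. The subunit gene *lid1*, present on the array as *cut20*, had means of -0.38 ± 0.34 in *sim3-143* and -0.55 ± 0.36 in *sim3-205*, with a limma adjusted p of 0.397 over both alleles. Both genes lay below 0 on all 4 arrays, as did 10.5% of all genes. They were named for an unadjusted limma p under 0.05 over the same arrays, a choice that favours a shared sign.

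Downstream of the APC/C stand securin, separase and cyclin B, and 3 of these 4 genes were tested. Separase *cut1* had the lowest mean of them in both alleles, with -0.082 ± 0.16 (SD, n = 2 arrays) for *sim3-143* and -0.70 ± 0.64 for *sim3-205*, where its arrays stood at -1.15 and -0.24 (limma adjusted p = 0.545). The kinase gene *cdc2* had the highest, 0.18 ± 0.43 in *sim3-143* and -0.024 ± 0.016 in *sim3-205*.

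The KMN network is the microtubule-binding layer of the kinetochore to which Bub1 and Bub3 dock. All 10 of its genes were tested, with medians of 0.027 in *sim3-143* and 0.083 in *sim3-205*. *mis12* had the highest mean in both alleles, with 0.92 ± 0.52 (SD, n = 2 arrays) for *sim3-143* and 0.30 ± 1.03 for *sim3-205*, at adjusted p of 0.581 and 0.848 from limma. Its arrays stood at 0.55 and 1.29 in *sim3-143* and at -0.43 and 1.03 in *sim3-205*, so that *sim3-205* replicate 1 alone lay below 0. The lowest means were those of *sos7* in *sim3-143*, -0.21 ± 0.58, and of *nnf1* in *sim3-205*, -0.59 ± 1.01.

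Shugoshin, which Bub1 helps to place at centromeres, and cohesin, which it protects there, were tested for 8 genes of 9, with medians of 0.015 for *sim3-143* and -0.0017 for *sim3-205*. The cohesin kleisin *rad21* had means of -0.41 ± 0.38 (SD, n = 2 arrays) and -0.31 ± 0.071, and over both alleles a limma adjusted p of 0.429. The cohesin regulator *pds5* had means of 0.30 ± 0.036 and 0.28 ± 0.016, and over both alleles a limma adjusted p of 0.413. All 4 arrays of *rad21* lay below 0, as for 10.5% of all genes, and all 4 of *pds5* above it, as for 11.6%. These genes too were named for their unadjusted limma p over the same arrays, which favours a shared sign. The *rad21* value on *sim3-205* replicate 1, -0.26, came from a grid with unrelated dyes (Spearman correlation of 0.16).

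Condensin is recruited with the help of the Aurora kinase, and the median of its 5 genes was -0.042 for *sim3-143* and -0.21 for *sim3-205*, where single arrays gave -0.32 and -0.082. The subunit gene *cnd3* had means of -0.25 ± 0.17 (SD, n = 2 arrays) and -0.39 ± 0.11, with a limma adjusted p of 0.413 over both alleles. The DASH complex, an Aurora substrate in budding yeast that couples kinetochores to microtubules, had medians of 0.14 and -0.025 over 7 genes tested of 10. Its extremes were *ask1*, highest in *sim3-143* at 0.36 ± 0.034 and lowest in *sim3-205* at -0.30 ± 0.80, *dam1* at 0.055 ± 0.029 in *sim3-143* and *dad1* at 0.23 ± 0.014 in *sim3-205*.

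The phosphatases that silence the checkpoint, with Polo kinase and spindle motors, were tested for 8 genes of 9, with medians of 0.037 for *sim3-143* and -0.20 for *sim3-205*, where single arrays gave -0.27 and -0.082. The PP1 phosphatase gene *dis2* averaged -0.27 ± 0.065 (SD, n = 2 arrays) for *sim3-143* and -0.42 ± 0.089 for *sim3-205*, with a limma adjusted p of 0.397 over both alleles. It lay below 0 on all 4 arrays, as did 10.5% of all genes, and was named for its unadjusted limma p over the same arrays.

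**Figure D5:**
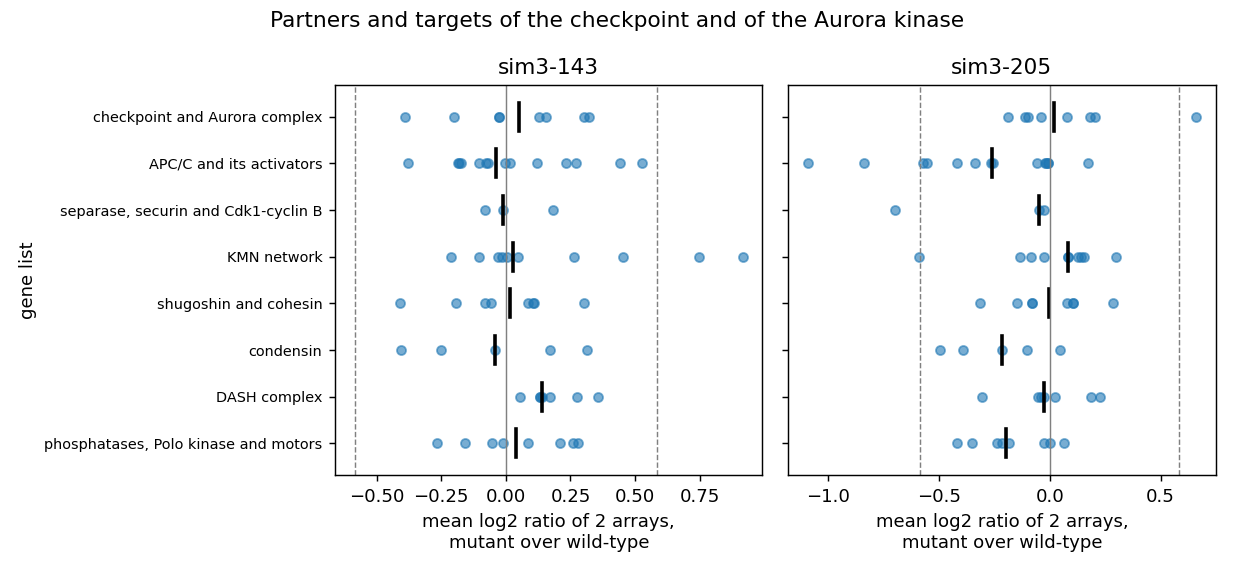
Mean log2 ratio of mutant over wild-type over 2 arrays (horizontal axis) of each tested gene in 8 lists (vertical axis), in *sim3-143* (left) and *sim3-205* (right), with a thick black line at each list's median and dashed lines at 1.5-fold. The medians lie between -0.042 and 0.14 in *sim3-143* and between -0.26 and 0.083 in *sim3-205*.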

How the data were processed

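The authors deposited median intensity values of every spot and of its local background in Cy3 and Cy5 for 4 two-colour arrays of 11520 spots, without normalization. They also deposited log2 ratios from GeneSpring after Lowess normalization. Comparison with the scanner values gave these log2 ratios as mutant over wild-type, with medians of 0.0029, 0.072, -0.063 and 0.0086 for *sim3-143* replicates 1 and 2 and *sim3-205* replicates 1 and 2. Their background treatment is not given in the sources used here.

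Each spot took the gene that *sim3-143* replicate 1 lists at the same place in the print grid, since the names written for *sim3-143* replicate 2 and *sim3-205* replicate 1 matched it at 0.521% of spots. Intensities were corrected with normexp (offset 50) and loess (span 0.3) in limma 3.58.1 (R 4.3.3). Controls, spots coded 1 or 4 by the image software and 73 spots with a Cy3 value of 0 were left out. The 2 spots of a probe were averaged per array. A limma model (lmFit, eBayes) with 1 coefficient per allele was fitted to all 4 arrays, and p-values were adjusted by Benjamini-Hochberg over 4820 genes (threshold 0.05). The number of arrays limits the precision. The steps were tested on simulated data. Names came from the files and a gene table of assembly ASM294v3, and no sequences were used here. The members and lists were chosen with earlier results of these data known. Named list genes were those with an unadjusted p under 0.05 in the mean of both alleles or past 1.5-fold, otherwise the highest and lowest of a list in each allele.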

Additional observations from a re-analysis of the deposited data

How the results depend on the processing

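The alternatives were other background corrections and dye normalizations, the authors' deposited log2 ratios, names as written, filters on dim or coded spots, the grids with unrelated dyes left out, a dye coefficient, alleles fitted alone, other fold rules and each array left out. The 6 genes matched directly were also taken alone, a choice made after the data were seen, and this changed no count and gave medians of -0.026 in *sim3-143* and -0.070 in *sim3-205*. Of 8 genes, the number called by limma in *sim3-205* and in the mean of both alleles ranged from 0 to 1 with an array left out, and the number past 1.5-fold in *sim3-205* from 0 to 1. The value of 1 was *bir1* without *sim3-205* replicate 2, where both points of the remaining array had to pass, and limma then called 7.01% of all genes in *sim3-205* and 4.79% in the mean. At an unadjusted p under 0.05 the count was 1 in each of these comparisons, and by the mean of the data points it was 1 past 1.5-fold in *sim3-205*. With print-tip loess 1 gene, *bir1* at 0.68, was past 1.5-fold in *sim3-143*, while *bir1* stood at 0.11 in *sim3-205*, and the cause was not tested. The *sim3-143* median of 0.052 moved to 0.31 with names as written and to 1.07 with the deposited ratios as placed, which cover *mad1* alone. The deposited ratios moved back to their spots gave no member on both arrays of an allele, so no allele mean. They held *mad1* at -0.37 and -0.30 on *sim3-143* replicate 1 and -0.013 and -0.42 on *sim3-205* replicate 2, and *bir1* at 0.16 and 0.22 on *sim3-143* replicate 2 and 2.46 and 2.55 on *sim3-205* replicate 1. With an array left out, the median ranged from -0.028 to 0.15 in *sim3-143* and from -0.13 to 0.11 in *sim3-205*. Of 191 recomputed member values, 16 changed sign, none of them called. *bir1* in *sim3-205* ranged from 0.058 with names as written to 1.58 with no background correction. No paired analysis was possible because the labels carry no replicate numbers, and those used here follow accession order and only name the arrays.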
